A study of Mus musculus with 35 samples.

Results

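The antioxidant program governed by the transcription factor NRF2 was followed through 10 genes in 35 libraries of mouse CD8+ T cells. The genes are Nfe2l2, which encodes NRF2, its inhibitor Keap1, and the target genes Gclc, Gclm, Slc7a11, Gsr, Txnrd1, Srxn1, Nqo1 and Hmox1. They were taken by name, with earlier results of these data known, out of 48709 genes in the count tables. All 10 were among the 13819 genes with enough reads to be tested, Slc7a11 only through the groups where it was high, so that counts of genes past the test are given over the other 9 and Slc7a11 is described by its reads. NRF2 is a transcription factor that is kept low by KEAP1, an adaptor protein that delivers it to a ubiquitin ligase. When oxidants or electrophiles modify KEAP1, NRF2 accumulates, pairs with small MAF proteins and binds antioxidant response elements in front of genes for glutathione synthesis, thioredoxin recycling, quinone reduction and heme breakdown. Much of this control acts on the NRF2 protein, which mRNA levels do not measure. In T cells, glutathione and the thioredoxin system are known to support growth after activation.

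The cells were OT-I CTLs, effector CD8+ T cells from mice whose T cells carry a transgenic receptor for an ovalbumin peptide. They had been primed through CD3 and CD28 with antibodies, then expanded with IL-2. The study asked how low pH changes the CTL transcriptome, with or without IL-2. There were 7 groups of 5 biological replicates: CTLs at 0 h, and the same kind of cells kept for 24 h at pH 7.4, pH 7 or pH 6.6, either without IL-2 or with IL-2 at 200 IU/mL. All groups shared the same labelled medium, low-glucose DMEM with 10% serum and 50 µM β-mercaptoethanol, a thiol reductant, so no library shows these genes without an added reductant. Dead cells had been removed on Ficoll before RNA was extracted.

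Reads on genes ranged from 16721319 to 34033340 per library, with a median of 24730020. Reads from a median of 37.1% of the table totals aligned to several places and were not assigned to a gene. The first principal component carried 56.87% of the variance. No pair of libraries in a group was alike enough to be a duplicate. Cd3e and Cd8a were found in every library, at 373.5 to 631 and 674 to 1596 CPM (counts scaled to library size). The B cell marker Ms4a1 was at 0, and the myeloid markers Lyz2 and Csf1r did not exceed 0.286 and 0.196 CPM. Some other markers of these cell types had reads. The B cell marker Cd79b was found in every library, at 1.021 to 5.908 CPM, and the myeloid marker Itgam reached 3.293 CPM. Among CD4 T cell markers, Foxp3 reached 5.498 CPM, Cd4 reached 2.484 CPM and Cd40lg did not exceed 0.08415 CPM. The summed level of 8 CD8 T cell markers, was 9588 to 12300 CPM at pH 7.4 with IL-2 and 3120 to 4512 CPM at pH 6.6 with IL-2. That fall was carried by the cytotoxic genes Gzmb, at a mean of 7796 and 845 CPM, and Prf1, at 380 and 92.7 CPM, whereas Cd8a was at 938 and 1046 CPM, Cd8b1 at 255 and 270.3 CPM and Cd3e at 411 and 581 CPM. The summed level of 9 myeloid markers was 5.39 to 11.3 CPM and 16.6 to 31.5 CPM in the same groups, nearly all of it from the lysosomal gene Cd68, and 4 of these markers were at 0 in both groups. The summed level of 4 NK cell markers was 596 to 705 CPM and 180.5 to 257 CPM there, most of it from Eomes (means of 614 and 190.5 CPM), which CD8 T cells also express. Klrb1c was found in every library, at 8.27 to 94.9 CPM, with means of 44.2 and 25.8 CPM in these groups. Ncr1 and Klra8 did not exceed 0.0694 and 0.0420 CPM in any library. The part of these shifts in the results was not tested.

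Promoter sequences from RefSeq (GRCm38.p6, 250 bases before to 50 after a gene's start) were found for 7 of the 10 genes, in 9 windows. Each window was searched on both strands for the core of the antioxidant response element, TGACNNNGC, and for TGATGNAA, the element bound by ATF4, a factor of the amino acid stress response that also drives Slc7a11. The antioxidant core was found in windows of 4 genes, Nfe2l2, Gclm, Txnrd1 and Srxn1, and was present in 13.99% of the 27025 genes with a window. The ATF4 element was found in Slc7a11 alone among the 7, with 2 matches, and in 4.511% of all genes. The stretches below are shown because they hold the matches upstream of the start. Each is written 5′ to 3′ on the strand of its gene, and capitals mark the match.
Nfe2l2, chr2:75704870-75704913, minus strand, match 240 to 232 bases upstream: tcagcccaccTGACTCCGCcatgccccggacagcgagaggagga
Gclm, chr3:122245398-122245456, plus strand, match on the other strand 134 to 126 bases upstream: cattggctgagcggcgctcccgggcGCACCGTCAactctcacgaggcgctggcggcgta
Txnrd1, chr10:82859089-82859147, plus strand, second of 3 starts, match on the other strand 92 to 84 bases upstream: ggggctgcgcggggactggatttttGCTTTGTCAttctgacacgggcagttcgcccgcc
Slc7a11, chr3:50443628-50443704, minus strand, matches 66 to 59 and, on the other strand, 47 to 40 bases upstream: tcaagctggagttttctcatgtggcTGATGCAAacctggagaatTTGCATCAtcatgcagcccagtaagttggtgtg
The matches in Slc7a11 face each other and do not overlap. Srxn1 had its match after the start. Windows of Keap1, Slc7a11 and Nqo1 did not hold the letters of the antioxidant core, which says nothing on elements farther away. Gclc, Gsr and Hmox1 were not in the promoter table.

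In the presence of IL-2, lowering the pH from 7.4 to 6.6 for 24 h raised Nfe2l2 mRNA and lowered the mRNA of Keap1 and of the 7 target genes counted. The falls ran from 1.26-fold for Gclc to 2.27-fold for Gsr. Of the 9 genes, 1 was higher and 8 were lower at an adjusted p of 0.05 (edgeR's quasi-likelihood test, adjusted over all genes). In this comparison 76.3% of all tested genes passed, 35.4% higher and 40.9% lower, so that passing the test was the rule rather than the exception. The median log2 fold change of the 9 genes was -0.93, against -0.067 for all genes tested. A log2 fold change of 1 is a 2-fold difference. In bulk RNA, fewer cells that express a gene and less of its RNA in each cell cannot be told apart.

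**Figure D1:**
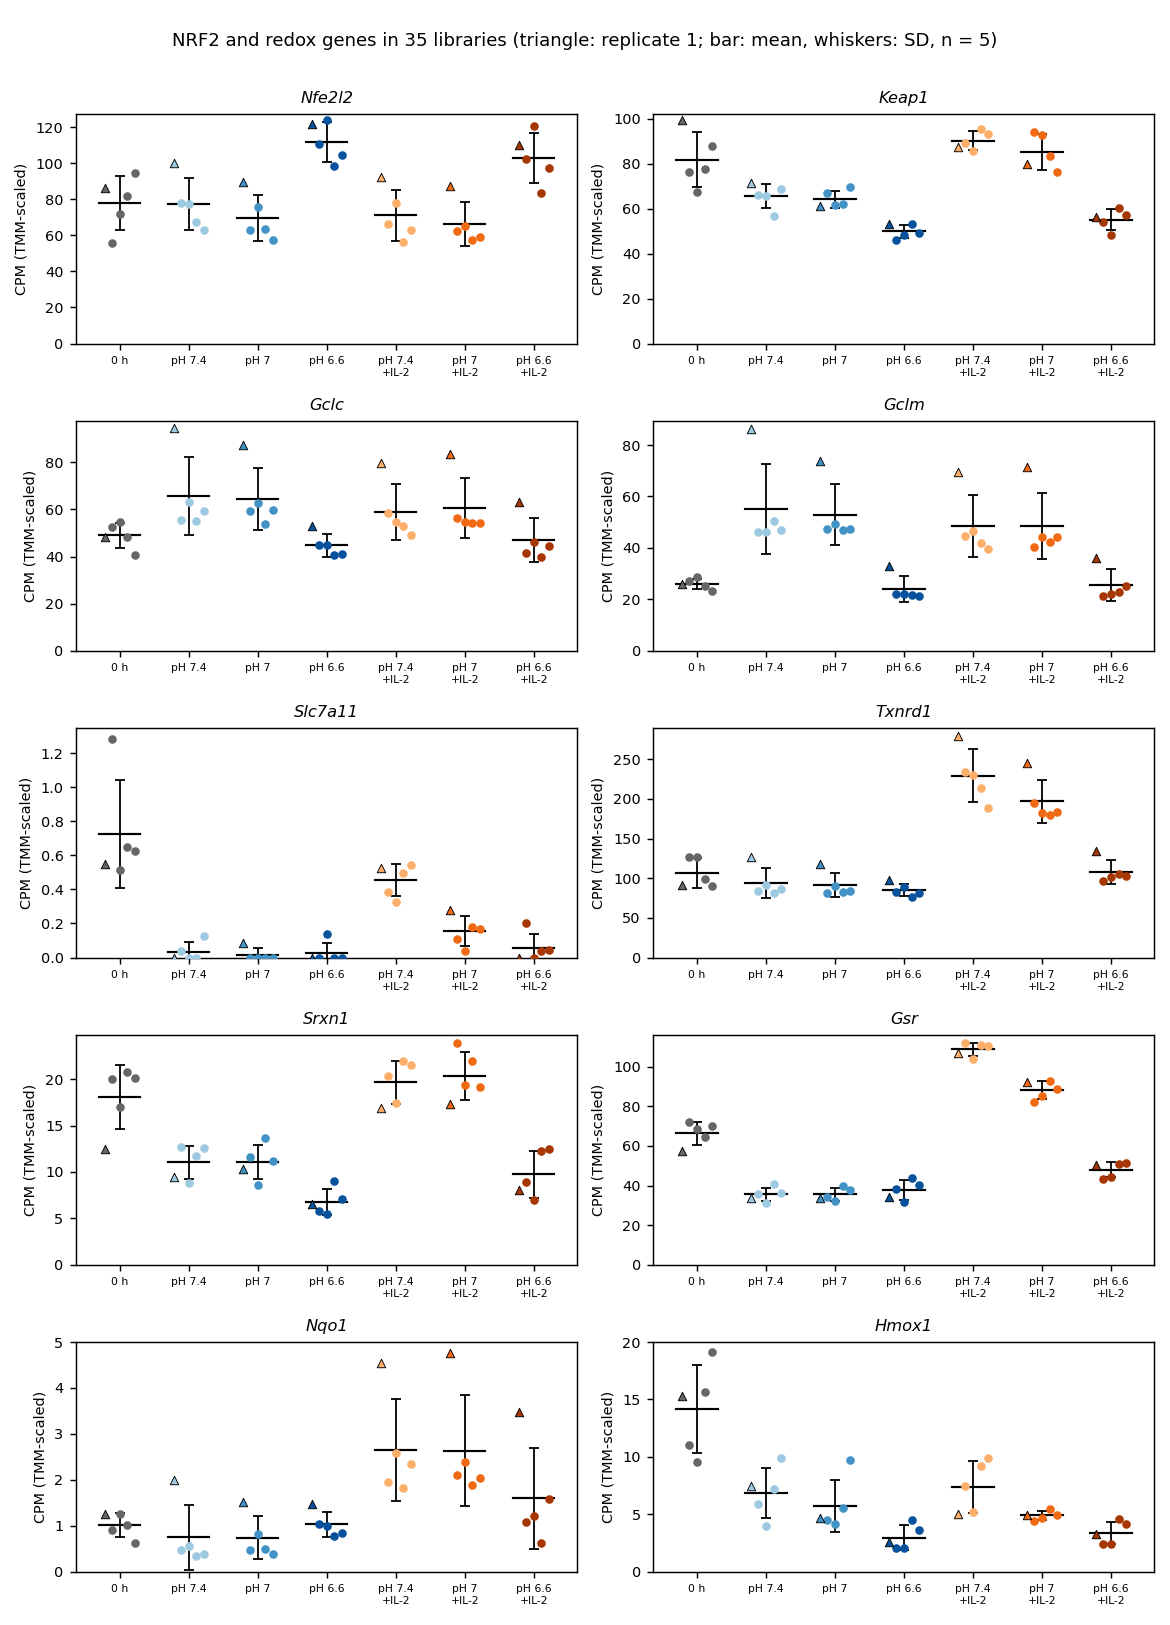
Level of each of the 10 genes in every library, in CPM after TMM scaling, on linear axes that start at 0. Groups run from 0 h through the pH series without and then with IL-2, points are libraries, triangles are replicate 1, bars are means and whiskers are SD (n = 5). Gsr sits at 104 to 112 CPM at pH 7.4 with IL-2 and at 43.5 to 51.2 CPM at pH 6.6 with IL-2, and replicate 1 lies highest in all 6 groups at 24 h for Gclc, Gclm, Txnrd1 and Nqo1.

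**Figure D2:**
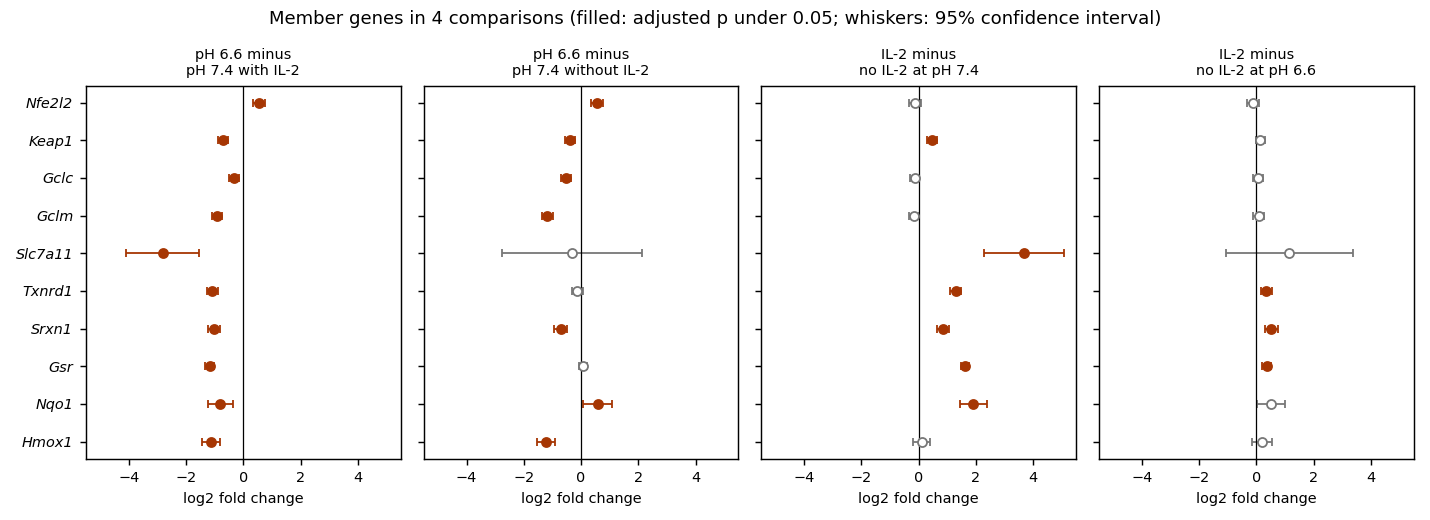
Log2 fold change of each gene in 4 comparisons, with 95% confidence intervals as whiskers and filled points for an adjusted p under 0.05. With IL-2 at pH 6.6 all points but that of Nfe2l2 lie below 0, while in the absence of IL-2 Txnrd1 and Gsr lie near 0, at -0.14 and 0.08.

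The regulators moved in opposite directions, and did so with and without IL-2. Nfe2l2 (ENSMUSG00000015839, chr2:75675513-75704641) in the presence of IL-2 was at 92.3, 66.0, 77.8, 56.3 and 62.9 CPM in replicates 1 to 5 at pH 7.4, and at 109.9, 102, 121, 83.6 and 97.6 CPM at pH 6.6. It was higher at pH 6.6 in 5 of 5 replicates, although the ranges of the groups overlapped between 83.6 and 92.3 CPM. The log2 fold change was 0.55 (SE 0.10, adjusted p = 1.61e-05). Replicate 1 rose by 0.25 on the log2 scale and the others by 0.57 to 0.64, and the fit without replicate 1 gave 0.69. The median of all genes in this comparison moved as well, from -0.067 to -0.004. In the absence of IL-2 Nfe2l2 went from 77.2 ± 14.4 CPM (SD, n = 5) at pH 7.4 to 112 ± 10.97 CPM at pH 6.6, a log2 fold change of 0.55 (SE 0.10, adjusted p = 2.47e-05). Without IL-2, 7 of the 9 genes passed the test at pH 6.6, 2 higher and 5 lower, in a comparison in which 67% of all genes passed (31.6% higher, 35.4% lower). IL-2 itself was not found to change Nfe2l2 at pH 7.4 (log2 fold change -0.12, 95% confidence interval -0.33 to 0.09) or at pH 6.6 (-0.12, -0.33 to 0.09).

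Keap1 (ENSMUSG00000003308, chr9:21229730-21239361) was at 87.7, 89.4, 85.8, 95.7 and 93.4 CPM at pH 7.4 and at 56.3, 54.0, 48.2, 60.3 and 57.4 CPM at pH 6.6 with IL-2. These groups did not overlap, and its log2 fold change was -0.71 (SE 0.08, adjusted p = 2.30e-09). In the absence of IL-2 Keap1 fell from 65.7 ± 5.51 CPM to 50.0 ± 2.98 CPM (SD, n = 5), or by -0.39 in log2 fold change (SE 0.08, adjusted p = 9.85e-05). The fall was larger with IL-2, by -0.32 on the log2 scale (SE 0.12, adjusted p = 0.0167 for the interaction), but that difference lost significance without replicate 1, 2 or 4. The median interaction of all genes was 0.04 with all replicates and 0.14 without replicate 1 or without replicate 2. Without replicate 4 it was 0.04. IL-2 raised Keap1 at pH 7.4, by 0.46 (SE 0.08, adjusted p = 5.90e-06), and the value at pH 6.6, 0.14 (SE 0.08), did not pass (adjusted p = 0.218). Exons of Keap1 overlap those of another gene on the opposite strand over 10.867% of their bases, and the strand setting of the counts is not given in the sources used here.

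The ratio of the regulators, each taken per kilobase of exon so that the genes could be compared within a library, marked the acid groups. Nfe2l2 per kilobase over Keap1 per kilobase at pH 6.6 averaged 2.78 ± 0.332 without IL-2 and 2.34 ± 0.510 with IL-2 (SD, n = 5 each). The other 5 groups averaged 0.969 to 1.45. The lowest acid library, at 1.71 with IL-2, lay just below the highest library of the other groups, at 1.81 for replicate 1 at pH 7 without IL-2. All other acid libraries were above 2.

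**Figure D3:**
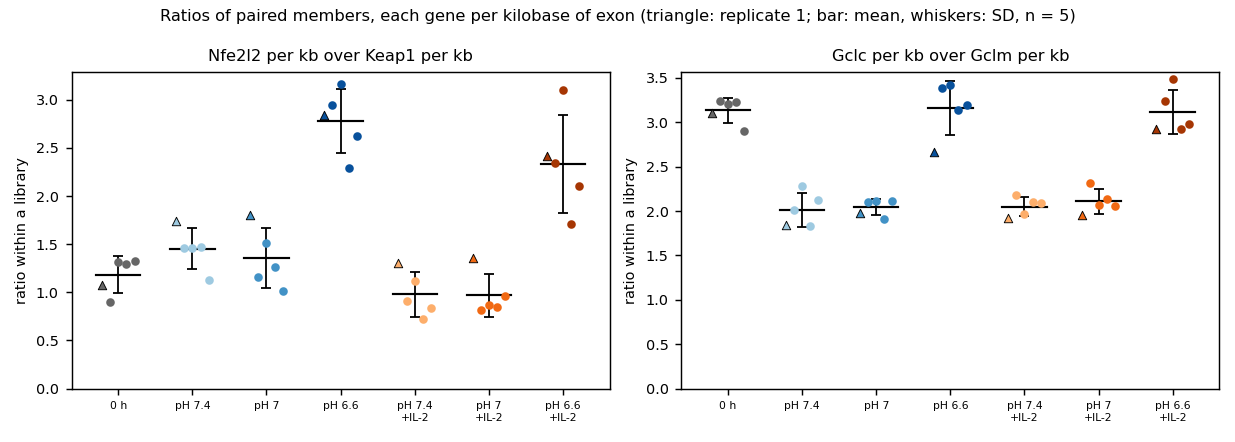
Ratio of Nfe2l2 to Keap1 (left) and of Gclc to Gclm (right) within each library, each gene per kilobase of exon, on linear axes that start at 0. Points are libraries, triangles are replicate 1, bars are means and whiskers are SD (n = 5). Both pH 6.6 groups average 2.34 or more on the left, and 0 h and both pH 6.6 groups average 3.11 to 3.16 on the right, against 2.02 to 2.11 in the other 4 groups.

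Gclc and Gclm encode the catalytic and the modifier subunit of glutamate-cysteine ligase, which carries out the first step of glutathione synthesis. Acidity lowered both, whether or not IL-2 was present. Gclm (ENSMUSG00000028124, chr3:122245557-122270732) was at 69.4, 44.7, 46.6, 41.9 and 39.5 CPM at pH 7.4 and at 36.2, 21.4, 22.1, 22.6 and 24.9 CPM at pH 6.6 with IL-2. In the absence of IL-2 it was at 86.1, 46.0, 46.3, 50.5 and 46.9 CPM at pH 7.4 and at 33.1, 22.1, 21.95, 21.6 and 21.4 CPM at pH 6.6. Neither pair of groups overlapped, although replicate 1 lay far above the rest in all 4 groups. The log2 fold change was -0.93 with IL-2 (SE 0.09, adjusted p = 4.74e-11) and -1.18 without (SE 0.09, adjusted p = 6.12e-13). Without replicate 1 the values were -0.85 and -1.15. The interaction did not pass the threshold (0.25, SE 0.13, adjusted p = 0.0773), but passed without replicate 1 (0.30, adjusted p = 0.0147) or without replicate 2 (0.42, adjusted p = 0.0183), with the strict count filter and with only the groups compared. Without replicate 2 the interaction of Gclc passed as well (0.39, adjusted p = 0.0171). The median interaction of all genes moved too, from 0.04 with all replicates to 0.14 without replicate 1 and 0.14 without replicate 2. It was 0.009 with the strict filter and 0.03 with only the groups compared.

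Gclc (ENSMUSG00000032350, chr9:77754535-77794485) moved less. It went from 59.0 ± 12.03 to 47.0 ± 9.45 CPM with IL-2 and from 65.6 ± 16.7 to 44.8 ± 4.92 CPM without (SD, n = 5). It was lower at pH 6.6 in 5 of 5 replicates in each case, with log2 fold changes of -0.33 (SE 0.09, adjusted p = 8.66e-04) and -0.53 (SE 0.09, adjusted p = 2.30e-06). With IL-2 the call was lost without the replicate block (adjusted p = 0.0551) and without replicate 2 (-0.21, adjusted p = 0.0552). At pH 7.4, the values with IL-2 minus those without were -0.15 for Gclc (95% confidence interval -0.32 to 0.03, adjusted p = 0.112) and -0.17 for Gclm (-0.35 to 0.004, adjusted p = 0.0671). Once replicate 1 was left out, both passed the threshold as lower with IL-2 (-0.18, adjusted p = 0.0312, and -0.20, adjusted p = 0.0153). The median of all genes in this comparison moved as well, from -0.04 to -0.10.

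At pH 6.6 the subunits were not found to differ from the cells at 0 h when all replicates were used. Gclm was at 26.03 ± 1.99 CPM at 0 h, against 25.4 ± 6.15 CPM at pH 6.6 with IL-2 and 24.0 ± 5.08 CPM without (SD, n = 5), and the difference from 0 h was -0.07 (95% confidence interval -0.26 to 0.11) and -0.15 (-0.34 to 0.03). Without replicate 1, however, both subunits passed as lower than at 0 h at pH 6.6 without IL-2, Gclm at -0.24 (adjusted p = 0.00584) and Gclc at -0.18 (adjusted p = 0.0359). At pH 7.4 Gclm had risen over 0 h, by 0.85 with IL-2 (SE 0.09, adjusted p = 9.58e-10) and by 1.03 without (SE 0.09, adjusted p = 5.08e-12). Because Gclm moved more than Gclc, the ratio of the subunits moved too. Gclc per kilobase over Gclm per kilobase was 2.90 to 3.24 at 0 h, 2.66 to 3.42 at pH 6.6 without IL-2 and 2.92 to 3.48 at pH 6.6 with IL-2. In the 20 libraries at pH 7.4 and pH 7 it was 1.83 to 2.32, and no library of these fell in the range of the other 15. Of the 50-base windows of Gclm transcripts, 96.078% occur in no other gene, the remainder being shared with Ppia and copies of it. Its exons overlap those of other genes over 3.879% of their bases on the same strand and 4.705% on the opposite strand.

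Slc7a11 (ENSMUSG00000027737, chr3:49892526-50443614), which imports the cystine from which glutathione is made, was close to the limit of detection in these cells. In replicates 1 to 5 it had 14, 35, 12, 16 and 16 reads at 0 h, 13, 11, 8, 12 and 12 reads at pH 7.4 with IL-2, 7, 3, 1, 5 and 4 reads at pH 7 with IL-2, and 0, 5, 0, 1 and 1 reads at pH 6.6 with IL-2. Without IL-2 the 5 libraries together had 4 reads at pH 7.4, 2 at pH 7 and 3 at pH 6.6. Relative to pH 7.4 with IL-2, the pooled level was 0.338 at pH 7 with IL-2 (exact 95% interval 0.192 to 0.572) and 0.136 at pH 6.6 with IL-2 (0.0521 to 0.298), intervals that cover counting error only. No test is drawn on, since the groups rich in reads are those that brought it past the count filter. Its partner chain Slc3a2, named here after its values were seen, was at 201 CPM at pH 7.4 and 207 CPM at pH 6.6 with IL-2 and at 86.4 and 269 CPM without. The value of Slc3a2 at pH 6.6 without IL-2 was 1.65 higher on the log2 scale (SE 0.09, adjusted p = 9.44e-16).

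Gsr, Txnrd1 and Nqo1 use NADPH or NADH to regenerate glutathione, regenerate thioredoxin and reduce quinones. All 3 were raised by IL-2 at pH 7.4, and all 3 fell at pH 6.6 with IL-2. IL-2 at pH 7.4 raised 5 of the 9 genes and lowered none, against 80.4% of all genes passing the test, 39.3% higher and 41.1% lower. Gsr (ENSMUSG00000031584, chr8:33652523-33698163) was at 107, 112, 104, 111 and 110.5 CPM at pH 7.4 with IL-2, at 50.4, 43.5, 44.2, 51.0 and 51.2 CPM at pH 6.6 with IL-2, at 33.8, 35.8, 31.4, 40.7 and 36.0 CPM at pH 7.4 without IL-2, and at 34, 38.4, 31.6, 43.9 and 40.4 CPM at pH 6.6 without IL-2. The group at pH 7.4 with IL-2 lay above the other 3, the groups without IL-2 overlapped, and the highest library at pH 6.6 without IL-2 just passed the lowest at pH 6.6 with IL-2. The log2 fold change at pH 6.6 was -1.18 with IL-2 (SE 0.07, adjusted p = 2.69e-16) and 0.08 without (95% confidence interval -0.06 to 0.23, adjusted p = 0.311). Though it did not pass, Gsr without IL-2 was higher at pH 6.6 in 5 of 5 replicates.

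The difference between these effects was itself tested, in an interaction that 4 of the 9 genes passed, all in the lower direction, against 67% of all genes (34.3% higher, 32.8% lower). For Gsr it was -1.26 (SE 0.10, adjusted p = 6.62e-13), for Txnrd1 -0.95 (SE 0.13, adjusted p = 1.66e-07) and for Nqo1 -1.39 (SE 0.33, adjusted p = 4.87e-04). The fourth was Keap1, above. The comparison of pH 6.6 with pH 7.4 in the presence of IL-2 and that of IL-2 at pH 7.4 share the 5 libraries at pH 7.4 with IL-2, so an extreme value there moves both. For Gsr these were -1.18 and 1.62, for Txnrd1 -1.08 and 1.29, and for Nqo1 -0.81 and 1.90.

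Txnrd1 (ENSMUSG00000020250, chr10:82833951-82897712), the cytosolic thioredoxin reductase, had the highest CPM of the 10 genes at pH 7.4 with IL-2. It was at 280, 234, 230, 214 and 189 CPM at pH 7.4 and at 134, 96.6, 102, 105 and 103 CPM at pH 6.6 with IL-2, with no overlap. Without IL-2 it was at 94.2 ± 18.5 CPM at pH 7.4 and 85.2 ± 8.13 CPM at pH 6.6 (SD, n = 5), a log2 fold change of -0.14 (95% confidence interval -0.33 to 0.05, adjusted p = 0.201). Though it did not pass, Txnrd1 without IL-2 was lower at pH 6.6 in 5 of 5 replicates. Per kilobase of exon, however, Gsr was the more abundant at pH 7.4 with IL-2, at 39.6 against 32.4 CPM per kilobase for Txnrd1. At pH 6.6 with IL-2, Txnrd1 stood at 108 CPM, level with the 107 CPM of 0 h, a difference of 0.0006 on the log2 scale (95% confidence interval -0.19 to 0.19).

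Nqo1 (ENSMUSG00000003849, chr8:107388225-107403206), a quinone reductase, was low throughout, with replicate 1 the highest library in all 6 groups at 24 h. In replicates 1 to 5 it had 112, 56, 63, 44 and 52 reads at pH 7.4 and 60, 27, 29, 15 and 38 reads at pH 6.6 with IL-2, or 2.65 ± 1.10 and 1.59 ± 1.10 CPM (SD, n = 5). These groups overlapped, but Nqo1 was lower at pH 6.6 in 5 of 5 replicates, with a log2 fold change of -0.81 (SE 0.21, adjusted p = 0.00105), or -0.88 without replicate 1. The call was lost without the replicate block (-0.77, adjusted p = 0.0909). Without IL-2 it went the other way, from 0.749 ± 0.706 to 1.03 ± 0.272 CPM, 0.58 on the log2 scale (SE 0.25, adjusted p = 0.0446), higher in 4 of 5 replicates. That call was lost under 7 alternatives, whereas leaving out replicate 1 gave 1.05 (adjusted p = 0.00105). The IL-2 effect at pH 7.4 was 1.90 (SE 0.23, adjusted p = 6.09e-09), where replicate 1 without IL-2 reached into the range with IL-2.

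Srxn1 (ENSMUSG00000032802, chr2:152105516-152111376) encodes sulfiredoxin, which repairs overoxidised peroxiredoxins, and it responded to both pH and IL-2. It was at 16.95, 20.4, 17.5, 22.01 and 21.5 CPM at pH 7.4 and at 8.09, 8.96, 6.92, 12.3 and 12.45 CPM at pH 6.6 with IL-2, with no overlap, and the log2 fold change was -1.03 (SE 0.11, adjusted p = 2.42e-10). Without IL-2 it fell from 11.04 ± 1.77 to 6.77 ± 1.42 CPM (SD, n = 5), a log2 fold change of -0.71 (SE 0.11, adjusted p = 1.46e-06). The difference between these falls did not pass (-0.32, 95% confidence interval -0.64 to -0.008, adjusted p = 0.0653). Leaving out a replicate moved it from -0.17 without replicate 1 (adjusted p = 0.387) to -0.43 without replicate 5 (adjusted p = 0.0313). For all genes the median interaction was 0.04 with all replicates, 0.14 without replicate 1 and 0.04 without replicate 5. IL-2 raised Srxn1 at pH 7.4 by 0.84 (SE 0.11, adjusted p = 1.26e-08).

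Hmox1 (ENSMUSG00000005413, chr8:75093621-75100589), the inducible heme oxygenase, showed acid-linked falls and no detected IL-2 effect. It was highest at 0 h, at 14.2 ± 3.86 CPM (SD, n = 5). With IL-2 it was at 5.03, 7.50, 5.21, 9.23 and 9.89 CPM at pH 7.4 and at 3.29, 2.44, 2.43, 4.56 and 4.16 CPM at pH 6.6, with no overlap. The log2 fold change was -1.13 (SE 0.16, adjusted p = 9.79e-08), and without IL-2 it was -1.22 (SE 0.16, adjusted p = 5.73e-08), the groups there overlapping. Their difference was 0.08 (95% confidence interval -0.37 to 0.54). IL-2 minus no IL-2 was 0.11 at pH 7.4 (95% confidence interval -0.19 to 0.41) and 0.20 at pH 6.6 (-0.15 to 0.54).

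At pH 6.6 the IL-2 effects that were seen at pH 7.4 were smaller or did not pass. The 3 genes Txnrd1, Srxn1 and Gsr were higher with IL-2 at pH 6.6, against 23.7% of all genes passing (13.2% higher, 10.6% lower). Their log2 fold changes were 0.34 (SE 0.09, adjusted p = 0.0070), 0.52 (SE 0.11, adjusted p = 8.79e-04) and 0.36 (SE 0.07, adjusted p = 2.90e-04), and that of Txnrd1 was lost without the block (adjusted p = 0.0606) or without replicate 4 (adjusted p = 0.0687). Nqo1 stood at 0.51 (SE 0.24, adjusted p = 0.115), and at 0.31 without replicate 1. At pH 7 the 5 genes Keap1, Txnrd1, Srxn1, Gsr and Nqo1 were higher with IL-2, as at pH 7.4, against 77.2% of all genes passing (37.6% higher, 39.5% lower), with 1.32 for Gsr (SE 0.07) and 1.12 for Txnrd1 (SE 0.09).

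At the intermediate pH fewer genes passed. In the presence of IL-2, pH 7 lowered Gsr and Hmox1, 2 of the 9 genes, against 19% of all genes passing (9.15% higher, 9.83% lower). Gsr went from 109 ± 3.31 to 88.3 ± 4.57 CPM (SD, n = 5), a log2 fold change of -0.30 (SE 0.07, adjusted p = 0.00216) that was passed in all 11 alternatives without a fold minimum. Hmox1 gave -0.55 (SE 0.15, adjusted p = 0.0105), a call that was lost without the block (adjusted p = 0.128) and without replicate 2, 4 or 5. Txnrd1 was at -0.22 (SE 0.09, adjusted p = 0.0953), and passed without replicate 1 (-0.23, adjusted p = 0.0474). In the absence of IL-2, none of the 9 genes passed at pH 7 by edgeR or by DESeq2, 0 had an unadjusted p under 0.05, and 1.68% of all genes passed (1.36% higher, 0.318% lower). The tightest of these was Gsr, with a log2 fold change of 0.0003 (95% confidence interval -0.14 to 0.14), and the others with ample reads ran from -0.27 for Hmox1 to 0.003 for Srxn1.

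The 24 h groups were also set against the cells at 0 h. At pH 7.4 with IL-2, 5 of the 9 genes were higher and 1 was lower than at 0 h, in a comparison that 59.9% of all genes passed (29% higher, 30.9% lower). The higher genes were Gclc (0.24, adjusted p = 0.0150), Gclm, Txnrd1 (1.08), Gsr (0.71) and Nqo1 (1.34), and the lower gene was Hmox1 (-0.94, SE 0.14, adjusted p = 1.47e-06). The call of Gclc was lost without the block (adjusted p = 0.142) and without replicate 1 (0.12, adjusted p = 0.170). At pH 7.4 without IL-2, 2 were higher, Gclc and Gclm, and 6 were lower, against 75.2% of all genes (36.9% higher, 38.3% lower), although those of Txnrd1 (-0.21) and Nqo1 (-0.56) were lost in 10 and 9 alternatives. Leaving out a replicate moved Txnrd1 from -0.31 (without replicate 1) to -0.05 (without replicate 2), and Nqo1 from -1.07 (without replicate 1) to -0.36 (without replicate 4). At pH 6.6 with IL-2, 2 were higher, Nfe2l2 (0.39, SE 0.10) and Nqo1 (0.53, SE 0.24), the second of which was lost in 5 alternatives and stood at 0.29 without replicate 1, and 4 were lower, Keap1, Srxn1, Gsr and Hmox1, against 68.5% of all genes (30.5% higher, 38% lower). At pH 6.6 without IL-2, 1 was higher, Nfe2l2 (0.51, SE 0.10), and 5 were lower, with Hmox1 at -2.26 (SE 0.16), against 75.1% of all genes (34.8% higher, 40.3% lower). All 4 comparisons share the 0 h libraries.

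Across the 35 libraries, which share groups and replicates, some of the 10 genes moved alike. Pearson's r of log2 CPM was 0.915 between Gclc and Gclm, 0.864 between Txnrd1 and Gsr, 0.837 between Txnrd1 and Nqo1, and 0.874 between Keap1 and Srxn1. Nfe2l2 was on the other side of most, with -0.622 to Keap1 and -0.727 to Srxn1, and Gclc with Gsr gave 0.011. Among 9006 other genes whose log2 CPM averaged 3 or more, those most like Gsr were Rpn2 (0.989) and Pa2g4 (0.987), those most like Txnrd1 were Nup155 (0.966) and Srsf10 (0.956), and those most like Keap1 were Men1 (0.967) and Pih1d1 (0.963). Srxn1 was most like Spp1 (0.963) and S100a4 (0.959), Hmox1 most like Tmem208 (0.902) and Rnf128 (0.901), and Nfe2l2 most like Fbxo3 (0.880) and Fnbp4 (0.877). Gclc had Gclm and Dpy19l3 (0.871), and Gclm had Dpy19l3 (0.948) and Ifit2 (0.922). Slc7a11 was most like Yars (0.896) and Aldh18a1 (0.894), but it had 0 to 3 reads in each library without IL-2. Nothing on its control is read from these values. Nqo1 was most like Zfp367 (0.873) and Rpa1 (0.865). These are descriptions of shared patterns over groups and replicates, with no test. Replicate 1 was highest in all 6 groups at 24 h for Gclc, Gclm, Txnrd1 and Nqo1, and its part in their correlations was not tested.

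The wider redox network was read from 6 lists of other genes, 110 in all, of which 102 were tested. These lists, and the ATF4 list below, were chosen with earlier results of these data known, so their shares and medians are descriptions. With IL-2 at pH 6.6, 29 were higher and 54 lower, beside 35.4% and 40.9% of all genes (76.3% passed in either direction). Without it 35 were higher and 33 lower, beside 31.6% and 35.4% of all genes (67% passed). IL-2 at pH 7.4 raised 55 and lowered 29, beside 39.3% and 41.1% of all genes. The medians of the log2 fold changes were -0.32, 0.08 and 0.33.

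**Figure D4:**
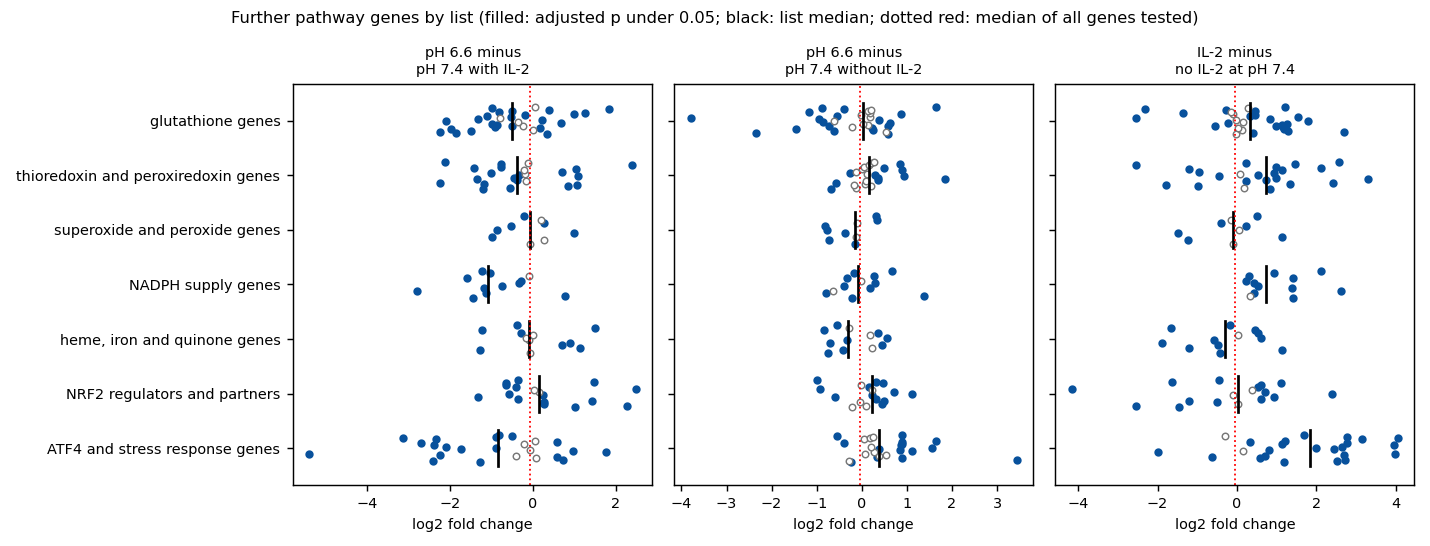
Log2 fold change of the tested genes of 7 further lists in 3 comparisons, with filled points for an adjusted p under 0.05, black bars for list medians and a dotted red line for the median of all genes tested. At pH 6.6 with IL-2 the NADPH supply genes have their median at -1.07, and in the absence of IL-2 it is at -0.09.

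Genes that supply NADPH, on which Gsr, Txnrd1 and Nqo1 draw, were mostly lower too. Of 12 such genes, 10 were lower and 1, Idh1 (0.78, SE 0.15), was higher at pH 6.6 with IL-2, beside 40.9% and 35.4% of all genes, and the list median was -1.07. Pgd and G6pdx, enzymes of the pentose phosphate pathway, went from 184 ± 17.6 to 61.1 ± 5.14 CPM and from 87.2 ± 6.67 to 32.3 ± 3.75 CPM (SD, n = 5), log2 fold changes of -1.59 and -1.44. Without IL-2 they were -0.32 and -0.21 (SE 0.08 and 0.07), and 5 of the 12 genes were higher and 5 lower, beside 31.6% and 35.4% of all genes. IL-2 at pH 7.4 raised 11 of the 12, beside 39.3% of all genes.

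Of 23 thioredoxin and peroxiredoxin genes, 13 were lower and 6 higher at pH 6.6 with IL-2, beside 40.9% lower and 35.4% higher among all genes. Prdx1, a peroxiredoxin whose overoxidised form is a substrate of sulfiredoxin, went from 670.5 ± 41.6 to 145 ± 27.4 CPM (SD, n = 5; log2 fold change -2.22, SE 0.13), and Txn1, the substrate of Txnrd1, from 528 ± 51.7 to 199 ± 19.5 CPM (-1.41, SE 0.11). The thioredoxin-binding gene Txnip moved up, from 449 ± 39.9 to 2352 ± 166 CPM (2.39, SE 0.09), as did Prdx6 (1.08, SE 0.10). In the absence of IL-2 Txn1 was higher at pH 6.6 (0.49, SE 0.11), Prdx1 lower (-0.57, SE 0.12) and Txnip at 0.15 (SE 0.09, adjusted p = 0.132), with 8 genes of the list higher and 3 lower, beside 31.6% and 35.4% of all genes.

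Of 29 glutathione genes tested, 16 were lower and 8 higher at pH 6.6 with IL-2, against the same 40.9% and 35.4% of all genes. The largest falls in genes whose log2 CPM averaged 3 or more were those of Ggct (-1.97, SE 0.12), of the gamma-glutamyl cycle, and the exporter Abcc4 (-1.84, SE 0.17). The largest rises were in the glutathione transferases Mgst2 (1.84, SE 0.10) and Gstt2 (1.26, SE 0.12). Of 9 genes that make or remove superoxide and peroxide, 2 were higher, Ncf1 (1.01) and Rac2 (0.28), and 4 lower, among them Cyba (-0.97) and Ncf4 (-0.52), all 4 named genes belonging to the phagocyte oxidase. These shares, too, stand beside 35.4% higher and 40.9% lower among all genes.

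Of 12 genes for heme, iron and quinones, 4 were higher and 4 lower at pH 6.6 with IL-2, where 35.4% of all genes were higher and 40.9% lower, so the list was near the background. Blvra, the biliverdin reductase that acts after heme oxygenase, fell by 1.27 on the log2 scale (SE 0.10) and the quinone reductase Nqo2 fell by 1.23 (SE 0.09). Osgin1 (1.51, SE 0.19) and the carbonyl reductase Cbr1 (0.71, SE 0.11) rose, opposite to Nqo1 and Hmox1.

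Of 17 regulators and partners of NRF2, 8 were higher and 7 lower at pH 6.6 with IL-2, beside 35.4% and 40.9% of all genes. Bach2, a repressor related to the NRF2 competitor BACH1, went from 19.5 ± 2.61 to 94.1 ± 15.6 CPM (SD, n = 5; 2.27, SE 0.12), and Sqstm1, whose protein p62 binds KEAP1, from 147 ± 26.4 to 408 ± 49.8 CPM (1.49, SE 0.09). Dpp3, another KEAP1-binding protein, fell by 1.32 on the log2 scale (SE 0.09), and Rbx1, of the ligase that KEAP1 serves, fell by 0.65 (SE 0.09). Bach1, named after its values were seen, stood at 31.3 and 63.8 CPM in these groups (1.03, SE 0.10, adjusted p = 6.65e-11) and at 85.4 and 73.7 CPM without IL-2 (-0.22, SE 0.10, adjusted p = 0.0527). At pH 7.4 IL-2 lowered both Bach1 (-1.46, SE 0.10) and Bach2 (-2.55, SE 0.12).

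Of 24 ATF4 and stress response genes, a list that includes Slc3a2, 14 were lower and 5 higher at pH 6.6 with IL-2, beside 40.9% and 35.4% of all genes. Slc7a5, a transporter that pairs with Slc3a2, fell by 3.13 on the log2 scale (SE 0.16) and Shmt2, of mitochondrial serine metabolism, fell by 2.69 (SE 0.12), while Ddit3 (1.77, SE 0.16) and Ddit4 (0.97, SE 0.19) rose. Without IL-2, 12 of the 24 were higher and 3 lower, beside 31.6% and 35.4% of all genes. IL-2 at pH 7.4 raised 20 of the 24, beside 39.3% of all genes, with a list median of 1.84.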

How the data were processed

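Polyadenylated RNA of OT-I CTLs was sequenced as single reads from stranded libraries. The authors deposited 1 table of raw counts per library, and the submitters' processing notes name cutadapt 1.8, STAR 2.5.2b, HTSeq 0.6.1 and GRCm38, with the strand setting and annotation not given in the sources used here. The 5 closing rows of each table stand for no gene and were kept from library sizes and tests, among them multi-mapped reads (32.8% to 48.3% of a table's total), reads outside genes (median 7.42%) and ambiguous reads (0.92%). Symbols and positions came from GENCODE M21 (GRCm38), with 48349 identifiers matched. Because multi-mapped reads were not counted, genes with copies can be undercounted.

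In R 4.3.3, edgeR 4.0.16 (filterByExpr with a minimum count of 10, TMM, robust quasi-likelihood fit of all 35 libraries, terms for group and replicate number) gave log2 fold changes, adjusted by Benjamini-Hochberg over 13819 genes with a threshold of 0.05. CPM are TMM-scaled. The replicate block follows the deposited design, which spreads 5 biological replicates over the conditions. Whether the 0 h library with the same number came from the same culture is not given in the sources used here, so the block is less certain in the comparisons with 0 h. Deviations of same-numbered libraries correlated over 0.1 in 95 of 105 pairs, in 5 of 5 pairs for pH 6.6 against pH 7.4 and in 3 to 5 of 5 for the comparisons with 0 h. Between any 2 libraries of a group, counts differed by more than sampling noise (chi-square per degree of freedom at least 4.76 in 70 pairs). The fitting steps were also run on counts simulated from the fitted model itself. Such counts share its assumptions, so nothing about these data is concluded from them.

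The members and gene lists were chosen with earlier results of these data known. Named were all 10 members, the 2 largest called rises and falls of each list (pH 6.6 against 7.4, IL-2 present, log2 CPM averaging 3 or more), and the 2 genes most correlated with each member. Alternatives were RLE normalization, DESeq2 1.42.0, a loose and a strict count filter, only the groups compared, no replicate block, each replicate left out, and a log2 fold change of at least 1.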

Additional observations from a re-analysis of the deposited data

Results flagged for a closer look

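Of 70 sets of 5 libraries (10 genes in 7 groups), 23 had a library far from the other 4 by Dixon's criterion. Its chance rate of about 1 set in 20 assumes independent sets of roughly normal values. These sets share the same 5 replicates, so no excess over chance is read from the count. The Slc7a11 sets at pH 7 and pH 6.6 without IL-2 had 4 libraries at 0 reads, where any read sets a library apart. In 19 of the 23 sets the library apart was replicate 1 and it was the highest, in 6 genes. For Gclm it was replicate 1 in all 6 groups at 24 h, at 86.1, 73.9 and 33.1 CPM at pH 7.4, 7 and 6.6 without IL-2 and at 69.4, 71.3 and 36.2 CPM with IL-2, where the next libraries reached 50.5, 49.3, 22.1, 46.6, 44.2 and 24.9 CPM. For Gclc it was so at pH 7.4 and 7 without IL-2 (94.8 and 87.5 CPM) and at pH 7 and 6.6 with IL-2 (83.5 and 63.3 CPM). For Txnrd1 the values were 126.7 and 118 CPM at pH 7.4 and 7 without IL-2 and 245 and 134 CPM at pH 7 and 6.6 with IL-2. For Nqo1 they were 2.003 CPM at pH 7.4 without IL-2, and 4.54 and 4.77 CPM at pH 7.4 and 7 with IL-2. Nfe2l2 at pH 7 with IL-2 (87.5 CPM) and Slc7a11 at pH 7 without IL-2 (0.0840 CPM, 2 reads) were the remaining ones.

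At 0 h replicate 1 was not apart. Its rank there was 3 of 5 for Gclc and Gclm, 4 for Txnrd1 and 1 for Nqo1, and its ratio to the mean of the other 4 libraries was 0.985, 0.999, 0.823 and 1.32. Over the 24 h groups the median of that ratio was 1.48 for Gclc, 1.60 for Gclm, 1.32 for Txnrd1 and 2.54 for Nqo1, against 0.960 for Gsr and 0.831 for Srxn1. Replicate 1 was highest in 6 of 6 groups at 24 h for these 4 of the 10 genes, and for 488 of the 13819 genes tested, or 3.53%. The labels say nothing of replicate 1 that sets it apart.

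The other 4 libraries apart were replicate 2 for Slc7a11 at 0 h (1.28 CPM) and at pH 6.6 with IL-2 (0.200 CPM), replicate 3 for Slc7a11 at pH 6.6 without IL-2 (0.136 CPM), and replicate 5 for Hmox1 at pH 7 without IL-2 (9.72 CPM).

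The effect of pH 6.6 differed between cells with and without IL-2 for 4 genes, by a test of the difference. On the log2 scale it was -0.32 for Keap1, -0.95 for Txnrd1, -1.26 for Gsr and -1.39 for Nqo1.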

How the results depend on the processing

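The alternatives gave 1286 gene results, those of Slc7a11 included. Of these, 1211 kept their direction where called and their side of the threshold, 53 lost the call, 22 gained it and 0 reversed. Requiring a log2 fold change of at least 1 left, of the 9 genes, Txnrd1, Srxn1, Gsr and Hmox1 at pH 6.6 with IL-2. It left Gclm and Hmox1 at pH 6.6 without IL-2, no gene of the 9 at pH 7 with IL-2 or for IL-2 at pH 6.6, and Gsr and Nqo1 for the interaction. Against 0 h it left Txnrd1 and Nqo1 at pH 7.4 with IL-2 and Gclm and Hmox1 at pH 7.4 without. At pH 6.6 against 0 h it left Hmox1 with IL-2, and Srxn1 and Hmox1 without. It left 4753, 2829, 203, 516, 4688, 2091, 4205, 3134 and 4495 of all genes in these comparisons, 62 at pH 7 without IL-2, and 5657 and 4920 for IL-2 at pH 7.4 and pH 7. At pH 7 with IL-2, the fit without the replicate block called 1660 genes, and the fit of only the groups compared called 4388 genes. Leaving out a replicate called 1283 to 2425 genes, the lowest without replicate 3. Of the 9 genes, Gsr alone was called there without the block and without replicate 2, 4 or 5, against Gsr and Hmox1 with all replicates. At pH 7 without IL-2 the calls were 56 without the block, 942 with only the groups compared, and 35 to 332 without a replicate, the lowest without replicate 2. For IL-2 at pH 6.6 they were 5369 with only the groups compared and 2119 to 2630 without a replicate, the lowest without replicate 4. The causes were not tested. Besides the calls named above, removing the block ended that of Nqo1 in the interaction (adjusted p = 0.0913) and against 0 h at pH 6.6 with IL-2 (adjusted p = 0.209). Slc7a11 and Nqo1 are not tested under the strict filter, and reads of 0 to 5 per library limit any statement on Slc7a11 at pH 6.6. DESeq2 gave no adjusted p for 2 gene results.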
